A study of Mus musculus with 44 samples.

Results

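The piRNA pathway genes described here are the 9 genes Piwil2, Mov10l1, Ddx4, Rnf17, Tdrkh, Tdrd1, Tdrd9, Asz1 and Mael, chosen by name among the 32287 gene identifiers measured in each of 44 mouse RNA-seq libraries. Each symbol matched a single identifier. Levels are given as TPM (transcripts per 1000000), a unit already corrected for gene length, so that levels can be set side by side between genes.

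piRNAs are small RNAs that guide PIWI proteins to transposon transcripts and loci, and the pathway is known mainly from germ cells, where its loss derepresses transposons and blocks the formation of sperm. Long precursor RNAs are handed to the pathway by a helicase, cut at the mitochondrial surface and amplified in cytoplasmic granules called nuage, which Tudor-domain proteins hold together. Promoters of several germline genes carry DNA methylation in somatic cells and are silent there, whereas the extraembryonic lineages of the mouse are known for a globally low DNA methylation.

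The study traced embryonic and extraembryonic cells into the gut. GFP+ embryonic stem cells (G4 background, male, grown from single-cell clones with EGFP driven by CAG at Rosa26) were aggregated with mCherry+ morulae (CD1/G4, EF1a-mCherry carried by a PiggyBac transposon), so that GFP marked the embryo proper and mCherry the extraembryonic tissues. All 12 groups carry 1 of these reporters, and lineage origin cannot be told apart from the difference between stem-cell and host-embryo background. At embryonic day (E) 6.5, tissues of single embryos were taken as epiblast (Epi, GFP+), distal extraembryonic endoderm (exEndo1, mCherry+) and proximal extraembryonic endoderm (exEndo2, mCherry+), with 4 wild-type libraries each. At E9.5, EPCAM+ cells of 4 pooled wild-type embryos were sorted as mCherry+ cells of midgut and hindgut (exMidgut and exHindgut, together exGut) or as GFP+ cells with low mCherry signal (emMidgut and emHindgut, together emGut), and mCherry+ yolk sac endoderm (YsEndo) was sorted alongside, with 4 libraries each. At E13.5, EPCAM+ cells of the colon and the small intestine (SI) were sorted from single embryos, with 3 libraries each of emColon and emSI (GFP+, wild type) and of exColon and exSI (mCherry+, Trp53 knockout made with Cas9 in the host zygotes). Extraembryonic origin and loss of Trp53 therefore cannot be told apart at E13.5. The low mCherry signal of the emGut cells comes from remnants of extraembryonic cells that they had taken up, as the study describes it. These cells were used as emGut to keep out surface ectoderm and primordial germ cells, which are also GFP+ and EPCAM+. The E9.5 and E13.5 libraries were made from few sorted cells and the E6.5 libraries from whole dissected tissues. Stage therefore cannot be told apart from the way of isolation and the input between E6.5 and later stages. In such bulk samples fewer expressing cells and less RNA per cell cannot be told apart either.

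Reporters followed the labels in all groups, but EGFP was not absent from exEndo1. Its median there was 7.38 TPM and its highest value 15.9 TPM, against up to 3.59 TPM in exEndo2 and 180 to 532 TPM in Epi. EGFP also reached 5.67 TPM in exSI (median 2.38 TPM), 2.38 TPM in exHindgut and 2.30 TPM in exMidgut. In exColon it was at 0 and in YsEndo at 0.467 TPM or lower. The sum of 5 epiblast markers was 37.4 to 188 TPM in exEndo1, 0.258 to 10.8 TPM in exEndo2 and 1747 to 2340 TPM in Epi, with 5 of 5 above 0 in each. The part of Epi cells in the exEndo1 values was not tested. Summed TPM of 6 endoderm markers was 1128 or higher in every library of sorted gut and yolk sac endoderm, though not every marker was present in every group. Foxa1 and Sox17 were low in YsEndo, with medians of 1.56 TPM and 2.09 TPM. Sox17 ranged from 0 to 4.78 TPM in exMidgut (median 0.703 TPM) and from 0 to 7.32 TPM in emMidgut. At E13.5 it was at 0.467 TPM or lower in all libraries. Trp53 transcripts were still present in the knockout groups, at 42.5 to 124 TPM in exColon and 33.4 to 167 TPM in exSI against 151 to 245 TPM in emColon and 158 to 201 TPM in emSI. Transcripts can remain after Cas9 editing, so this level does not check the genotype. Between 10382 and 13596 genes lay above 1 TPM per library. Read depth per library was not used here, since TPM carries no depth. How often a gene was listed at exactly 0 shows what low values can bear. Among protein-coding genes whose other libraries of the group averaged 2 to 5 TPM, the value was 0 in 0.223% of cases in E6.5 libraries, in 4.92% of E9.5 cases and in 19.4% of E13.5 cases. At 0.5 to 1 TPM these shares were 2.14%, 30.9% and 41.4%. A single 0 of a low gene at E13.5 therefore says little.

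**Figure D1:**
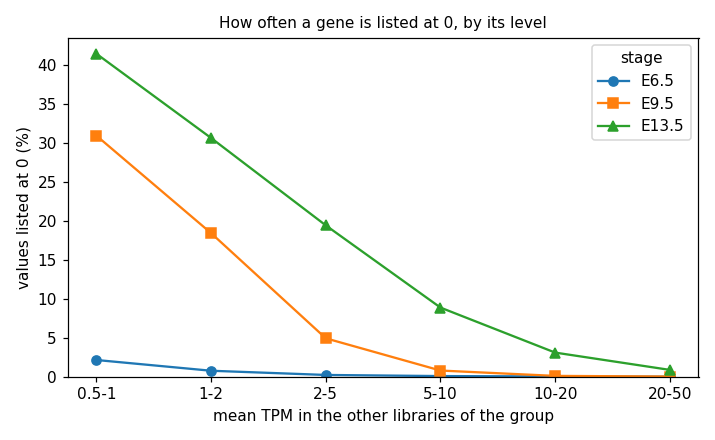
Share of values listed at 0 (y axis, percent) for protein-coding genes, by the mean TPM of the same gene in the other libraries of its group (x axis), with 1 line per stage. At 2 to 5 TPM the shares were 0.223% (E6.5), 4.92% (E9.5) and 19.4% (E13.5).

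RefSeq promoter windows (GRCm38.p6, 250 bases before to 50 after an annotated start) were found for 7 of the 9 genes, and none for Piwil2 and Rnf17. Germline promoters are often rich in CpG, and the E-box CACGTG and the E2F-like sequence GGCGGGA or its reverse complement TCCCGCC are bound by known germline gene repressors, so these were counted on both strands. The motifs do not overlap each other. The first Tdrd1 window and those of Ddx4, Mael and Mov10l1 held 20, 38, 24 and 20 CpG, against a median of 7 and an upper quartile of 20 over 32851 windows. Asz1 had 17, Tdrkh 25 and Tdrd9 10. CACGTG lay in a window of 5 of the 7 genes (Mov10l1, Ddx4, Tdrd1, Tdrd9 and Mael), against 8.09% of all 27025 genes with a window and 11.8% of genes with a window of at least 10 CpG. The E2F-like sequence lay in 2 of the 7 (Ddx4 and Mael) against 12.7% of all genes, and both motifs together in the same 2 against 1.39%. The 250 bases before the start are shown for the 2 members with the clearest differences between lineages and a window, and for 2 more that share their E-box. Capitals mark the motifs. For Mov10l1 and Ddx4 the gene model behind the expression values begins inside the printed stretch, and other starts may be used in these cells.
Mov10l1, chr15:88982744-88982993, plus strand: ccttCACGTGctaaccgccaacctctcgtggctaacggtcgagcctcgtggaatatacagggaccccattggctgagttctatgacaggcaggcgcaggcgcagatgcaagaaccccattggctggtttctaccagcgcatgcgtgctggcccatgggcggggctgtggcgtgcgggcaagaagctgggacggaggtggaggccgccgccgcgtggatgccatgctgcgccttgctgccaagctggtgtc
Ddx4, chr13:112652311-112652560, minus strand: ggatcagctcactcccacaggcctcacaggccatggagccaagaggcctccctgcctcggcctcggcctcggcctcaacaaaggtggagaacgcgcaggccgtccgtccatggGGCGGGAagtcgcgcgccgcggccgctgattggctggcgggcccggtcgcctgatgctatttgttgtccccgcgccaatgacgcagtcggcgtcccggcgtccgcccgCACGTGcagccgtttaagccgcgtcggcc
Tdrd1, chr19:56825959-56826208, plus strand: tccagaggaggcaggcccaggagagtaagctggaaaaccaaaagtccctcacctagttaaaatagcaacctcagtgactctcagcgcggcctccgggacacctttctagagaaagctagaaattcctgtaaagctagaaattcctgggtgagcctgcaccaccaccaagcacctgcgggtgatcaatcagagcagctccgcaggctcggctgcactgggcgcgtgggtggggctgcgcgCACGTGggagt
Mael, chr1:166238745-166238994, minus strand: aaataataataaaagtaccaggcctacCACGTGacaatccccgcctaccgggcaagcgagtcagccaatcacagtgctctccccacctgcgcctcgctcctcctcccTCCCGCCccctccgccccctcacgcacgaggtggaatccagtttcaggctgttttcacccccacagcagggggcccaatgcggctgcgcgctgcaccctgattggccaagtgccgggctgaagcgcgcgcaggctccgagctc
The E-box began 246 bases before the start in Mov10l1, 29 in Ddx4, 11 in Tdrd1 and 223 in Mael. A match in a window is a description of the sequence and does not show binding.

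The 9 genes were not detected alike. Of 44 libraries, Tdrkh was above 1 TPM in 42, Rnf17 in 40, Ddx4 in 21, Asz1, Tdrd1 and Mov10l1 in 16 each, Piwil2 in 6, Tdrd9 in 3 and Mael in 1. A library held a median of 2.5 members above 1 TPM in emMidgut and in emHindgut, 4.5 in exMidgut, 4 in exHindgut and 3.5 in YsEndo. At E6.5 the median was 3 in Epi, 5 in exEndo1 and 5.5 in exEndo2. At E13.5 it was 1 in emColon and 2 in emSI against 4 in exColon and 5 in exSI. Between 45.3% and 57.5% of protein-coding genes were above 1 TPM per library. Across the 12 group means of log2(TPM + 1), the pairs most alike were Rnf17 with Ddx4 (Pearson r = 0.75) and Rnf17 with Asz1 (r = 0.75), and Tdrkh ran opposite to Piwil2 (r = -0.81). These values share their libraries and describe this set of groups.

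**Figure D2:**
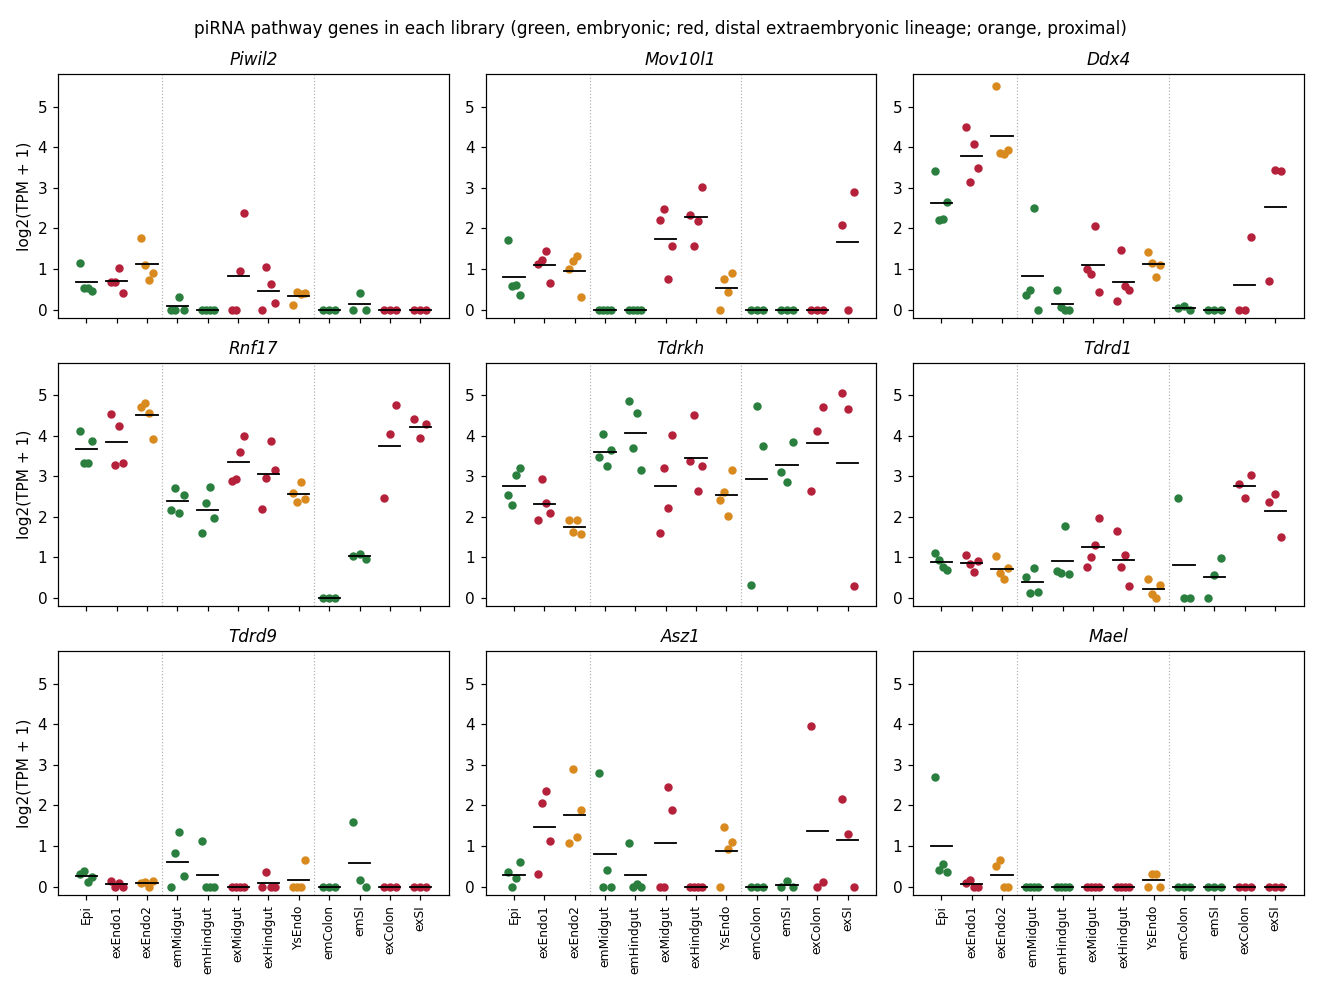
Level of each member in every library, as log2(TPM + 1) on the y axis, for the 12 groups on the x axis. Points are libraries and black bars are group means, green groups are embryonic, red groups are exEndo1 and the gut groups of extraembryonic origin, and orange groups are exEndo2 and YsEndo. Mov10l1 is at 0 in all 8 emGut libraries and above 0 in all 8 exGut libraries, and Rnf17 is at 1.14 TPM or lower in all 6 embryonic libraries of E13.5.

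Differences were tested with limma on log2(TPM + 1) over the protein-coding genes that exceeded 1 TPM in 4 or more of the libraries compared (3 or more at E13.5), and a gene was called at a Benjamini-Hochberg adjusted p under 0.05 with a log2 difference beyond 1. A difference on this scale understates the change of a low gene. Members that did not pass the filter were compared with a two-sided exact permutation test of the same values, in 40 tests over all comparisons, none of which reached an adjusted p under 0.05 over those 40 (lowest 0.162). Nothing in the labels ties the E9.5 libraries to separate litters, so p-values measure the spread between these pools. Each E13.5 intestine was split into colon and small intestine, and at E9.5 both gut regions came from posterior parts of the embryos, so libraries of the 2 organs or regions may share embryos, and no source used here says which. Tests over both organs or regions count them as separate samples, and their p-values may be too small. The values within 1 organ or region do not have this limit. Cells of both origins were sorted from lineage-traced embryos, however, so embryonic and extraembryonic libraries of 1 organ or region may share embryos too. No source used here says which, and the main tests count them as separate samples.

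Mov10l1, the helicase that binds piRNA precursors and passes them on for processing, gave the clearest separation of origins in the E9.5 gut. Its gene lies at chr15:88982909-89055152 (mm10, plus strand). It measured 3.60, 4.60, 0.679 and 1.95 TPM in exMidgut and 4.00, 1.96, 3.52 and 7.07 TPM in exHindgut. It was listed at 0 in all 4 emMidgut and all 4 emHindgut libraries, so the groups did not overlap. The difference of exGut minus emGut was 2.01 on the log2(TPM + 1) scale (SE 0.28, limma adjusted p = 0.000190, n = 8 and 8 libraries of 2 regions that may share embryos). Mov10l1 was the 1 member called among the 5 of 9 that passed the filter, and it passed through its exGut values alone. Of all 13460 genes tested, 2.33% were called, 1.06% as higher in exGut, and 0.646% were higher without overlap. Just 7 of these genes were at 0 in all 8 emGut libraries and above 0 in all 8 exGut libraries, and no gene showed the opposite pattern. With a pseudocount of 0.1 in place of 1 the difference was 4.89, so its size depends on that choice.

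Within regions the groups were apart as well. In hindgut the difference was 2.27 (SE 0.43, limma adjusted p = 0.00670), where 3.06% of 12312 genes were called. Leaving out any 1 of the 4 exHindgut libraries took Mov10l1 below the filter and so out of that test. In midgut 3 of 4 exMidgut values were above 1 TPM, the gene did not pass the filter (0 of 2 members tested there were called, and 2.54% of all genes), and the exact permutation test gave the smallest p that 4 against 4 libraries allow (two-sided p = 0.0286, adjusted p = 0.190 over the 40 tests). The test of a different origin effect between hindgut and midgut gave 0.52 (SE 0.58, limma adjusted p = 0.908, 95% interval -0.69 to 1.73), and 0 of 5 members were called in that test by limma, 0 at an unadjusted p under 0.05, against 0.0966% of all genes. Neural markers moved with origin as well. The sum of 5 was 4.27 to 7.32 TPM in emMidgut (4 of 5 above 0, Pax6 at 0) and 13.6 to 19.0 TPM in emHindgut (5 of 5), against 0.133 to 1.96 TPM in exMidgut (2 of 5, Sox1, Pax6 and Tubb3 at 0) and 2.20 to 4.08 TPM in exHindgut (4 of 5, Elavl3 at 0). Most of the emHindgut sum was Nes, at 13.6 to 18.8 TPM. The sum of 5 mesenchyme markers was 30.0 to 46.7 TPM in emHindgut and 19.9 to 27.8 TPM in exHindgut, with 5 of 5 above 0 in both. The part of these cells in the Mov10l1 values was not tested.

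Mov10l1 was low in the earlier and parallel tissues. At E6.5 it measured 2.28, 0.487, 0.525 and 0.273 TPM in Epi, 1.18, 1.32, 1.72 and 0.566 TPM in exEndo1, and 1.01, 1.30, 1.48 and 0.230 TPM in exEndo2. These groups overlapped, and exEndo1 differed from Epi by 0.30 (95% interval -0.34 to 0.93, limma adjusted p = 0.388). YsEndo, the extraembryonic endoderm that stays outside the embryo, held 0, 0.697, 0.340 and 0.860 TPM. exGut was higher than YsEndo by 1.49 (SE 0.38, limma adjusted p = 0.00384), in a comparison where 42.4% of 12789 genes were called, and it passed that filter through its exGut values alone. There the median of all genes was 0.59, and it fell to 0.07 after median-ratio rescaling, with Mov10l1 then at 1.21 (limma adjusted p = 0.0125). exGut exceeded exEndo1 by 0.90, which did not pass (limma adjusted p = 0.0648). Without exMidgut replicate 3, the lowest exGut value, this difference was 1.08 (limma adjusted p = 0.0146). Leaving out the lowest value can only raise it, and no other alternative tried passed. At E13.5 the gene was at 0 in all 3 emColon, all 3 emSI and all 3 exColon libraries, and at 3.21, 0 and 6.40 TPM in exSI. It did not pass the filter there. The change of its origin effect from E9.5 to E13.5 was -1.18 (SE 0.48, limma adjusted p = 0.293).

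Rnf17, a Tudor-domain protein of germ cell granules that restrains secondary piRNA production, was the most widely detected member after Tdrkh, and its origin difference was largest at E13.5. The gene spans chr14:56402581-56525032 (mm10, plus strand). In the embryonic gut of E13.5 it measured 0 TPM in all 3 emColon libraries and 1.06, 1.14 and 0.939 TPM in emSI. In cells of extraembryonic origin it measured 4.52, 15.6 and 25.8 TPM in exColon and 20.4, 14.3 and 18.6 TPM in exSI. All 6 of these values lay above all 6 embryonic ones, as for 0.682% of the 12470 genes tested. The difference was 3.47 (SE 0.51, limma adjusted p = 0.00104, n = 6 and 6 libraries of 2 organs that may share embryos), and Rnf17 was the 1 member called of 5 tested, where 0.626% of all genes were called. It passed the filter through its extraembryonic values, since 2 embryonic libraries alone exceeded 1 TPM.

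By organ, the difference of Rnf17 was 3.18 in the small intestine (SE 0.63, limma adjusted p = 0.0415) and 3.75 in the colon (SE 0.89, limma adjusted p = 0.167). In these comparisons 0.739% of 11367 and 0.269% of 11158 genes were called. The call in the small intestine was lost when any 1 of the 6 libraries was left out, with limma adjusted p between 0.103 and 0.199 and differences between 3.08 and 3.32. It was also lost with the replicate number as a block (limma adjusted p = 0.0797). In the colon the difference did not pass the test. Markers of other cells also differed between the small intestine groups. The summed level of 5 mesenchyme markers was 1.75 to 307 TPM in emSI (4 of 5 above 0, Prrx1 at 0), with Col3a1 at up to 203 TPM, and 0 to 1.05 TPM in exSI (3 of 5 above 0, Col1a1 and Prrx1 at 0). In the colon it was 6.20 to 11.7 TPM in emColon (4 of 5 above 0, Twist1 at 0) and 0.169 to 5.57 TPM in exColon (2 of 5 above 0, Col1a1, Col3a1 and Pdgfra at 0). The sum of 5 neural markers was 10.4 to 16.6 TPM in emSI (3 of 5 above 0, Sox1 and Tubb3 at 0), most of it Pax6 at 8.74 to 15.3 TPM, and 0.0912 to 5.01 TPM in exSI (3 of 5 above 0, Tubb3 and Elavl3 at 0). It was 3.45 to 8.16 TPM in emColon (3 of 5 above 0, Pax6 and Elavl3 at 0) and 0 to 2.49 TPM in exColon (2 of 5 above 0, Sox1, Pax6 and Tubb3 at 0). The part of these cells in the Rnf17 values was not tested.

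At E9.5 Rnf17 was present in every gut library. It measured 6.35, 6.68, 11 and 14.9 TPM in exMidgut and 3.56, 6.81, 13.7 and 7.92 TPM in exHindgut. In emMidgut it measured 3.52, 5.52, 3.26 and 4.85 TPM, and in emHindgut 2.03, 4.06, 5.71 and 2.94 TPM. The midgut groups did not overlap, as for 4.6% of 12422 genes in that direction, and the hindgut groups did. The difference of exGut minus emGut was 0.92 (SE 0.27, 95% interval 0.35 to 1.5) and did not pass the test (limma adjusted p = 0.0739). Without exHindgut replicate 1, its lowest value in exGut, it was 1.07 with a limma adjusted p of 0.0253. The origin effect of Rnf17 grew by 2.54 from E9.5 to E13.5 (SE 0.49, limma adjusted p = 0.00997, 95% interval 1.53 to 3.55), in a test that called 0.706% of all genes. The median level was 7.37 TPM in exGut and 17.1 TPM in the 6 extraembryonic libraries of E13.5, and it was 3.79 TPM in emGut and 0.469 TPM in the 6 embryonic ones. Stage, Trp53 genotype, the sort of the embryonic cells (low mCherry signal at E9.5, GFP+ at E13.5) and the pooling of embryos change together in that interaction. The same limit holds for every change from E9.5 to E13.5 given here.

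Before gut formation the Rnf17 values of the lineages overlapped. It measured 16.5, 8.97, 9.11 and 13.6 TPM in Epi, 22.0, 8.75, 17.8 and 9.08 TPM in exEndo1, and 25.2, 27.0, 22.5 and 14.2 TPM in exEndo2. exEndo1 differed from Epi by 0.18 (95% interval -0.49 to 0.85, limma adjusted p = 0.621). exEndo2 differed from Epi by 0.84, with a limma adjusted p of 0.00872 but below the threshold of 1. Without exEndo2 replicate 4, its lowest value in exEndo2, the difference was 1.03. YsEndo held 5.05, 4.18, 6.20 and 4.47 TPM, all below the exEndo2 values, as for 44% of genes. YsEndo was lower than exEndo2 by a log2 difference of -1.93 (SE 0.21, limma adjusted p = 6.56e-06), or -1.52 after rescaling. In that comparison 29.6% of 11199 genes were called, and the median of all genes was -0.41 before rescaling and 0.01 after it.

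Ddx4, the mouse Vasa helicase and a defining component of nuage, was highest in the extraembryonic endoderm of E6.5 and low in all gut of E9.5. In mm10 it lies at chr13:112598333-112652475 on the minus strand. It measured 9.62, 3.62, 3.71 and 5.32 TPM in Epi. In exEndo1 it measured 21.5, 7.79, 15.8 and 10.2 TPM, and in exEndo2 44.6, 13.52, 13.3 and 14.1 TPM. The values of exEndo2 lay above all those of Epi, as for 32.1% of 12039 genes, and 1 value of exEndo1 lay within the range of Epi. The differences from Epi were 1.17 in exEndo1 (SE 0.33, limma adjusted p = 0.00965) and 1.66 in exEndo2 (SE 0.38, limma adjusted p = 0.00238). The tissues differed widely, with 33.4% of 12050 and 35.8% of 12039 genes called, and 1 of 4 members tested was called in exEndo1 and 3 of 5 in exEndo2. Rescaling moved the median of all genes by -0.14 and -0.10 in these comparisons, and Ddx4 was then 1.03 and 1.55. Without exEndo1 replicate 1 the difference of exEndo1 was 0.94, under the threshold.

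In the sorted extraembryonic cells of E9.5 Ddx4 was lower than in the whole extraembryonic tissues of E6.5, where stage and way of isolation cannot be told apart. It measured 0.994, 0.843, 3.17 and 0.358 TPM in exMidgut, 0.154, 1.78, 0.484 and 0.389 TPM in exHindgut, and 1.69, 1.23, 0.754 and 1.16 TPM in YsEndo. exGut was lower than exEndo1 by a log2 difference of -2.91 (SE 0.38, limma adjusted p = 2.41e-05), where 30.4% of 12919 genes were called. Ddx4 passed that filter through its exEndo1 values, since 2 exGut libraries alone exceeded 1 TPM. YsEndo was lower than exEndo2 by -3.16 (SE 0.33, limma adjusted p = 5.21e-06). In emGut Ddx4 was at 0.272, 0.390, 4.65 and 0 TPM in emMidgut and at 0.391, 0.0368, 0 and 0 TPM in emHindgut. emMidgut replicate 3 stood above the rest. The exact permutation test of exGut against emGut gave a two-sided p of 0.295 (difference 0.41), which does not show that they are alike.

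At E13.5 Ddx4 was at 0.0625 TPM or lower in all 6 embryonic libraries. In exColon it was at 0, 0 and 2.47 TPM, and in exSI at 0.641, 9.87 and 9.65 TPM. All 3 exSI values lay above all 3 emSI values, which were 0. The same held for 8.16% of the genes that passed the filter, which Ddx4 did not. The exact permutation test gave the smallest p possible with 3 against 3 (two-sided p = 0.1). Over both organs the Ddx4 difference was 1.54 (SE 0.60, limma adjusted p = 0.328) and did not pass. There Ddx4 passed the filter through its extraembryonic values alone.

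**Figure D3:**
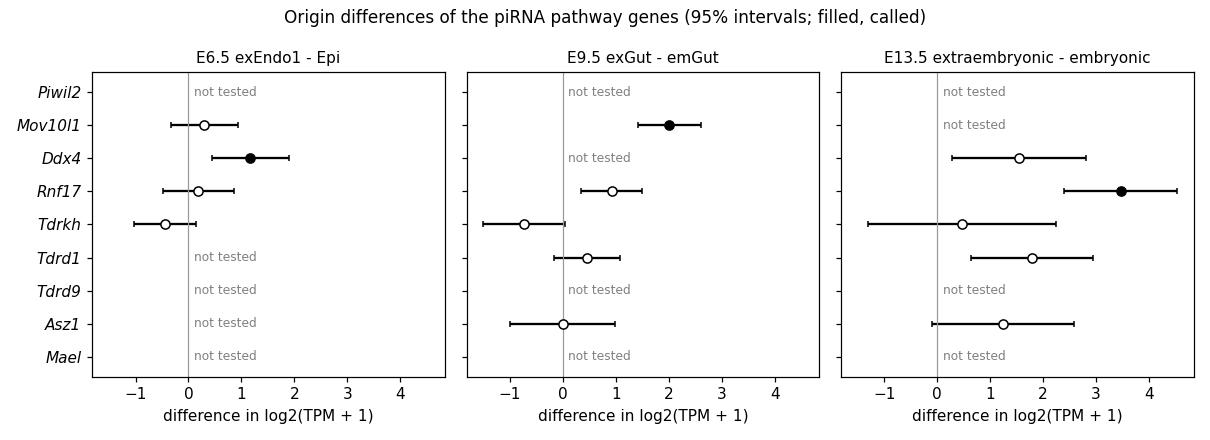
Difference in mean log2(TPM + 1) between cells of extraembryonic and embryonic origin (x axis) for each member (y axis) in the 3 stages (panels), with 95% intervals from limma. Filled points passed the test, open points did not, and members below the filter are written as not tested. The filled points are Ddx4 (1.17, where 33.4% of all genes were called), Mov10l1 (2.01, where 2.33% were) and Rnf17 (3.47, where 0.626% were), and several members were not tested in every panel.

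Piwil2, which encodes the PIWI protein MILI that receives the first piRNAs, stayed low. The locus is chr14:70372477-70429383 (mm10, minus strand). At E6.5 it measured 1.22, 0.444, 0.446 and 0.377 TPM in Epi, 0.614, 0.591, 1.04 and 0.336 TPM in exEndo1, and 2.37, 1.13, 0.657 and 0.877 TPM in exEndo2. At E9.5 it measured 0, 0, 0.917 and 4.17 TPM in exMidgut and 0, 1.08, 0.559 and 0.119 TPM in exHindgut. In emGut 7 of 8 libraries were at 0 and emMidgut replicate 3 held 0.238 TPM. The exGut and emGut ranges overlapped, and the exact permutation test gave a two-sided p of 0.0443 (difference 0.61, adjusted p = 0.253 over the 40 tests). YsEndo held 0.0858, 0.339, 0.294 and 0.338 TPM, below all 4 exEndo2 values (difference -0.79, exact permutation test, two-sided p = 0.0286, the smallest possible, adjusted p = 0.190 over the 40 tests). Piwil2 did not pass the filter there, and 44% of the genes that did were lower without overlap. Across the 12 libraries of E13.5 it was above 0 in 1, emSI replicate 2 at 0.333 TPM.

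The Tudor-domain partners of PIWI proteins followed different courses. Tdrkh, which anchors PIWI proteins at mitochondria for trimming, was expressed in nearly all libraries and was not called in either comparison of gut origin. It is encoded at chr3:94413273-94434668 (mm10, plus strand). It measured 4.84, 3.91, 7.16 and 8.30 TPM in Epi, 2.81, 6.64, 4.07 and 3.26 TPM in exEndo1, and 2.78, 2.08, 2.79 and 2.00 TPM in exEndo2. exEndo2 was lower than Epi by a log2 difference of -1.01 (SE 0.22, limma adjusted p = 0.00156), just past the threshold, and leaving out Epi replicate 3, Epi replicate 4, exEndo2 replicate 2 or exEndo2 replicate 4 brought it to between -0.96 and -0.86. At E9.5 it measured 10.1, 15.4, 8.58 and 11.5 TPM in emMidgut and 28.0, 12, 22.7 and 7.89 TPM in emHindgut. In exMidgut it measured 2.03, 8.25, 3.64 and 15.2 TPM, and in exHindgut 9.46, 21.8, 5.22 and 8.53 TPM. The difference of exGut minus emGut was -0.73 (95% interval -1.52 to 0.05, limma adjusted p = 0.341). YsEndo held 4.37, 5.12, 3.03 and 7.92 TPM. Its difference from emGut was -1.29 (limma adjusted p = 0.00344), but 46.6% of genes were called there, the median of all genes was -0.64, and after rescaling it was -0.75 (limma adjusted p = 0.0635). At E13.5 Tdrkh was at 0.241, 25.8 and 12.5 TPM in emColon, 7.66, 6.26 and 13.4 TPM in emSI, 5.22, 16.2 and 25.2 TPM in exColon, and 32.1, 24.4 and 0.225 TPM in exSI. A single library each of emColon and exSI was near 0 beside 2 high ones.

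Tdrd1, a Tudor scaffold that binds MILI in nuage, was low before E13.5. In mm10 the gene spans chr19:56826209-56870012 on the plus strand. It measured 1.17, 0.927, 0.703 and 0.603 TPM in Epi, 1.07, 0.782, 0.569 and 0.898 TPM in exEndo1, and 1.06, 0.526, 0.380 and 0.684 TPM in exEndo2. In exMidgut it measured 0.698, 1.03, 1.49 and 2.91 TPM against 0.438, 0.0860, 0.679 and 0.114 TPM in emMidgut, without overlap (exact permutation test, two-sided p = 0.0286, the smallest possible, adjusted p = 0.190). Tdrd1 did not pass the filter there, and 4.6% of the 12422 genes that did were higher without overlap. In exHindgut it measured 2.15, 0.687, 1.09 and 0.222 TPM and in emHindgut 0.587, 0.531, 2.43 and 0.508 TPM, with overlap. Over both regions the difference was 0.45 (SE 0.29, limma adjusted p = 0.478). YsEndo held 0.388, 0.0644, 0 and 0.255 TPM. At E13.5 the 6 extraembryonic libraries held 5.97, 4.55 and 7.18 TPM in exColon and 4.14, 4.90 and 1.86 TPM in exSI. The 6 embryonic libraries held 4.53, 0 and 0 TPM in emColon and 0, 0.488 and 0.973 TPM in emSI, so that 5 of 6 lay below all extraembryonic values. The difference of 1.79 (SE 0.54) had an unadjusted limma p of 0.00431 and did not pass correction (limma adjusted p = 0.190). Tdrd1 passed that filter through its extraembryonic values, since 1 embryonic library alone exceeded 1 TPM. Without emColon replicate 1, its highest embryonic value, the change of its origin effect from E9.5 to E13.5 was 1.74 with a limma adjusted p of 0.0444. With all libraries these were 1.33 and 0.267, and leaving out that value can only raise the change.

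Tdrd9, a Tudor-domain helicase that acts with the nuclear PIWI protein in fetal male germ cells, was near 0 nearly everywhere. Its locus is chr12:111971559-112068854 (mm10, plus strand). It measured 0.250, 0.309, 0.0852 and 0.172 TPM in Epi, 0.105, 0, 0.0598 and 0 TPM in exEndo1, and 0.0626, 0.0885, 0 and 0.0918 TPM in exEndo2. At E9.5 the higher values were embryonic, with 0, 0.762, 1.55 and 0.197 TPM in emMidgut and 1.16, 0, 0 and 0 TPM in emHindgut. exGut held 0.283 TPM in exHindgut replicate 2 and 0 in the other 7 libraries, and YsEndo held 0.587 TPM in replicate 4 and 0 in the rest. The exact permutation test of exGut against emGut gave a two-sided p of 0.128 (difference -0.40). At E13.5 emSI held 2.02, 0.114 and 0 TPM, and all other libraries were at 0.

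Asz1, known as GASZ, which holds the cutting machinery at the mitochondrial surface, was variable within groups. It maps to chr6:18050964-18109061 (mm10, minus strand). It measured 0.283, 0, 0.157 and 0.516 TPM in Epi, 0.234, 3.17, 4.12 and 1.16 TPM in exEndo1, and 1.10, 6.46, 1.35 and 2.7 TPM in exEndo2. All exEndo2 values lay above all Epi values, as for 32.1% of genes, and exEndo2 was higher by 1.48 (SE 0.34, limma adjusted p = 0.00234), where 35.8% of genes were called. Asz1 passed that filter through its exEndo2 values alone, and leaving out any 1 exEndo2 library took it out of the test. exEndo1 overlapped with Epi (difference 1.16, exact permutation test, two-sided p = 0.0857). At E9.5 it measured 0, 0, 4.45 and 2.67 TPM in exMidgut and 0 in all 4 exHindgut libraries, against 6.01, 0, 0.322 and 0 TPM in emMidgut and 1.11, 0, 0.0456 and 0 TPM in emHindgut. The difference of exGut minus emGut was -0.00 (95% interval -1.0 to 0.99, limma adjusted p = 0.998). YsEndo held 0, 1.77, 0.884 and 1.13 TPM. At E13.5 it measured 14.5, 0 and 0.0903 TPM in exColon, 3.50, 1.45 and 0 TPM in exSI, 0 in all 3 emColon libraries, and 0, 0.0979 and 0 TPM in emSI. The difference of 1.24 did not pass (SE 0.64, limma adjusted p = 0.496), and Asz1 entered that test through its extraembryonic values alone.

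Mael, or Maelstrom, a nuage protein needed for transposon silencing, was listed at 0 in every gut library. The gene is at chr1:166201201-166238747 (mm10, minus strand). All 16 gut libraries of E9.5 and all 12 libraries of E13.5 were at 0, and YsEndo held 0, 0.233, 0.242 and 0 TPM. At E6.5 it measured 5.46, 0.338, 0.482 and 0.277 TPM in Epi, 0.0649, 0.122, 0 and 0 TPM in exEndo1, and 0.421, 0.577, 0 and 0 TPM in exEndo2. All Epi values lay above all exEndo1 values (exact permutation test, two-sided p = 0.0286, the smallest possible, adjusted p = 0.190), and 3 of the Epi values were at 0.482 TPM or lower. The same separation held for 24.6% of the genes that passed the filter, which Mael did not.

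No member was called between exEndo1 and exEndo2, the distal and proximal parts of the E6.5 endoderm, in the limma test of 5 members, with 2 at an unadjusted p under 0.05 and 6.41% of 11408 genes called. Among E6.5 libraries those numbered 1 held the highest Ddx4 and Tdrd1 values in all 3 groups. Epi replicate 1 also held the highest Piwil2, Mael, Mov10l1 and Rnf17 of its group, beside 19.2 TPM of Dppa3, a germ cell and naive pluripotency marker, against 2.56 to 4.81 TPM in the other Epi libraries. exEndo1 replicate 1 held 19.4 TPM of Dppa3 against 0.519 to 4.53 TPM in the rest of its group. In exEndo2 Dppa3 was at 0.350 TPM or lower. The summed level of 7 germ cell markers, Dppa3 among them, was 41.5 TPM in Epi replicate 1 and 16.8 to 30.8 TPM in the other Epi libraries. It was 44.6 TPM in exEndo1 replicate 1 and 23.5 to 30.0 TPM in the rest of its group. With Dppa3 left out of the sum, replicate 1 lay within the range of the other libraries in both groups. The part of Dppa3-expressing cells in the E6.5 values was not tested.

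The same marker set emMidgut libraries apart at E9.5. Dppa3 was at 224 TPM in replicate 1 and 183 TPM in replicate 3 and at 0 in the other 6 emGut libraries, and Dnd1, a germ cell RNA-binding protein, was at 28.5 and 17.2 TPM there and at 3.02 TPM or lower in the other 6. The summed level of 7 germ cell markers was 380 and 333 TPM in these libraries, 103 and 127 TPM in the other emMidgut libraries, 39.7 to 60.1 TPM in emHindgut, 71.0 to 126 TPM in exMidgut and 52.6 to 74.0 TPM in exHindgut. In the 2 libraries most of it was Dppa3, and outside them Prdm1 and Kit. Of the 7 markers, only Dppa3 and Dnd1 were higher in both of these libraries than in all other emGut libraries. Nanos3 was at 0.506 and 2.21 TPM in replicates 1 and 3 and at up to 5.37 TPM in the other emGut libraries. Dazl was at 1.92 and 0 TPM against up to 2.24 TPM, and Prdm14 at 0.0182 and 3.41 TPM against up to 1.21 TPM. The 2 libraries with Dppa3 also held the highest emGut values of Asz1 (6.01 TPM, replicate 1), and of Ddx4 (4.65 TPM), Tdrd9 (1.55 TPM) and Piwil2 (0.238 TPM, all replicate 3). Mov10l1 and Mael were at 0 in both. Leaving out libraries where Mov10l1 is at 0 cannot move its difference between exGut and emGut. Without the 2 libraries the difference of Rnf17 was 0.88 (limma adjusted p = 0.143). The part of germ cells in these values was not tested further. No exGut library held more than 0.462 TPM of Dppa3, and no library of E13.5 held any.

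The wider pathway was read from 22 further genes, all found in the files. At E9.5, 13 of the 22 passed the filter, and limma called 1 of them between exGut and emGut, Tex19.1, where 2.33% of 13460 genes were called. The median difference was -0.11 over the 13 against -0.03 over all genes. Tex19.1, a germline and placental protein linked to transposon control, was higher in exGut by 4.18 (SE 0.47, limma adjusted p = 1.45e-05), at a median of 23.8 TPM against 0. It passed the filter through its exGut values, since 1 emGut library alone exceeded 1 TPM. At E13.5, 9 passed and Tex19.1 was again the 1 called (5.08, SE 0.52, limma adjusted p = 1.81e-05), where 0.626% of 12470 genes were called. There it passed the filter through its extraembryonic values alone. The median difference was 0.57 over the 9 against 0.11 over all genes.

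At E6.5, 13 of the 22 passed, and exEndo1 was higher than Epi in 4 and lower in 3, beside 33.4% of all genes called. The higher ones were Tex19.1 (2.87), Tdrd5 (2.62), Tdrd7 (2.00) and Btbd18 (1.09), and the lower ones were Tdrd12 (-2.45), Pnldc1 (-2.16) and Pld6 (-1.43), as log2 differences with limma adjusted p of 0.00251 or lower. Tdrd5 and Tdrd7 are Tudor proteins of nuage, Btbd18 is a nuclear regulator of piRNA precursor transcription, Tdrd12 is a partner of PIWI proteins, and Pnldc1 trims and Pld6 cuts piRNA intermediates at mitochondria. Tdrd5 measured 1.91 ± 0.311 TPM in Epi and 17.0 ± 3.13 TPM in exEndo1 (SD, n = 4 each), and Pnldc1 14.7 ± 5.82 TPM and 2.62 ± 1.76 TPM. Of these 7 genes, Tex19.1 was the 1 called between exGut and emGut, and Btbd18 did not pass the filter there. Tdrd5 was at 7.29 ± 5.02 TPM in exMidgut and 8.92 ± 1.82 TPM in emMidgut (SD, n = 4 each).

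Other pathway genes were named where a group mean exceeded 10 TPM. Tex15, a nuclear effector of piRNA-guided methylation, measured 14.0 ± 3.54 TPM in exHindgut and 8.08 ± 2.35 TPM in emHindgut against 1.57 ± 0.880 TPM in exMidgut and 1.66 ± 1.49 TPM in emMidgut (SD, n = 4 each), a difference between regions that was not tested. Fkbp6, a chaperone partner used in piRNA loading, was highest in exEndo2 at 31.7 ± 20.8 TPM and was at 0 in all 12 libraries of E13.5. Pld6 was at 0.160 ± 0.145 TPM in emColon and 26.2 ± 4.14 TPM in exColon (SD, n = 3 each), but at 7.87 ± 4.67 TPM in emSI and 10.7 ± 2.79 TPM in exSI. Its origin difference was 4.55 in the colon (limma adjusted p = 0.0416), where 0.269% of 11158 genes were called. In the small intestine it was 0.57 (limma adjusted p = 0.836), where 0.739% of 11367 were. The difference between organs was not tested. Pld6 passed the colon filter through its exColon values alone, and leaving out any single exColon library would take it out of that test. The change of its origin effect, averaged over organs and regions, from E9.5 to E13.5 was 2.71 (SE 0.47, limma adjusted p = 0.00415). Prmt5 and Wdr77, which form the methyltransferase that marks PIWI proteins and many other substrates, had group means of 57.4 TPM or more in all 12 groups.

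**Figure D4:**
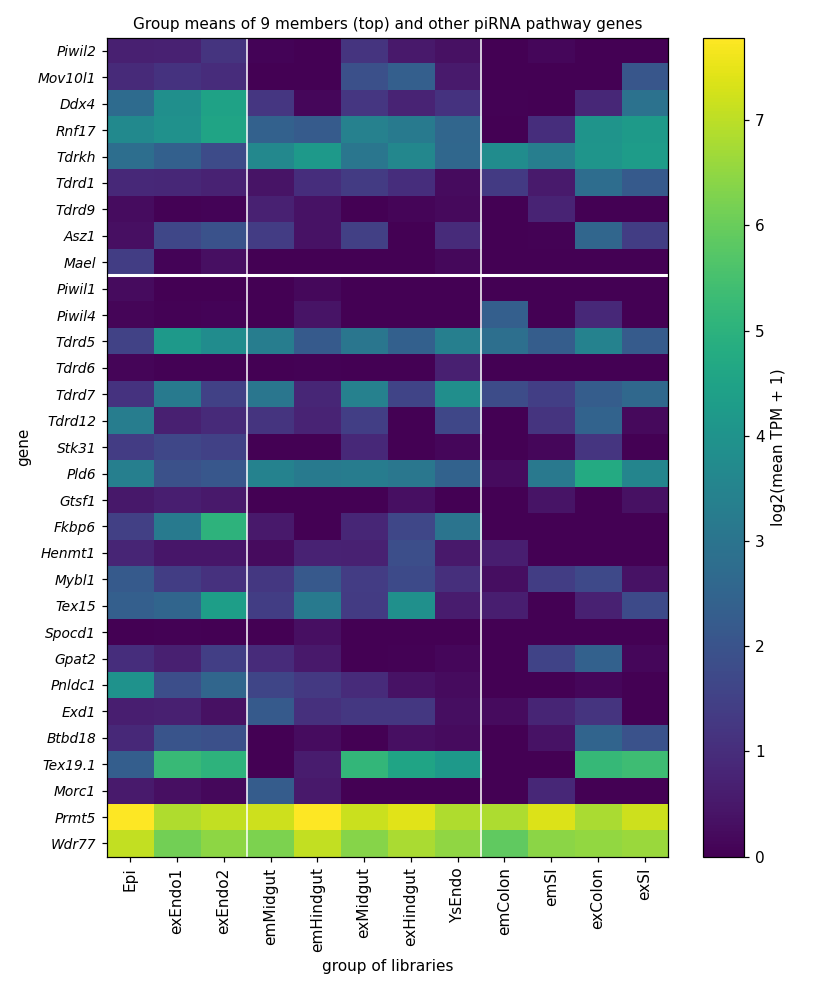
Group means as log2(mean TPM + 1), shown by colour, for the 9 members (above the white line) and 22 other piRNA pathway genes (below it) in the 12 groups, with white vertical lines between stages. Tex19.1 is at 22.6 TPM or more in exMidgut, exHindgut, exColon and exSI and at 0.517 TPM or less in all 4 embryonic gut groups.

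Relatives of the members that work outside the germline were read in the same way. Of 8 such genes (Argonautes, Ddx3x, Mov10, Tdrd3 and Snd1), all passed the filter at E9.5 and limma called 0 between exGut and emGut, with 1 at an unadjusted p under 0.05. Of 14 repressors of germline genes (E2F6 and MGA complex members, histone and DNA methyltransferases and their cofactors), 13 passed and limma called 0, with 1 at an unadjusted p under 0.05. With 2.33% of all genes called, lists of this size may hold no call by their size alone. At E6.5, 4 of 14 repressors were lower in exEndo1 than in Epi and none higher, against 13.6% of all genes called lower.

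For each member, the genes outside these lists whose 12 group means ran most alike were found, as a description. They are the highest of a search over all expressed protein-coding genes. With 12 points, high values of r can arise by chance in such a search. For Mov10l1 they were Gja3 (r = 0.91), Sohlh2 (r = 0.88) and Dnaja4 (r = 0.84), for Rnf17 Fam160b1 (r = 0.93), Mtpap (r = 0.92) and Fastkd2 (r = 0.91), and for Ddx4 Milr1 (r = 0.97), Gm17324 (r = 0.94) and Gm14412 (r = 0.93). For Tdrkh they were Nelfe (r = 0.93), Sept10 (r = 0.90) and Zscan21 (r = 0.90), and for Tdrd1 Fam50b (r = 0.95), H2-T3 (r = 0.91) and Ccdc59 (r = 0.88). For Asz1 they were Fgfr3 (r = 0.88), Ralgapa2 (r = 0.88) and Ttll3 (r = 0.87), and for Piwil2 Adra2b (r = 0.89), Gm9821 (r = 0.88) and Zfp345 (r = 0.88). The patterns of Mael and Tdrd9 rest on a few nonzero libraries, and their nearest genes were Rbp7, Nrsn1 and Rptn, and Sgo2b, Spaca1 and Agrp.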

How the data were processed

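RNA-seq gene tables of 44 libraries in 12 groups (3 or 4 libraries each) were used. The libraries were poly(A) cDNA made with the Smart-RRBS protocol, from few sorted cells at E9.5 and E13.5 and from whole dissected tissues at E6.5. The authors trimmed reads (cutadapt 4.1), aligned them to mm10 with the transgenes added (STAR 2.7.9a) and estimated the deposited TPM, FPKM and coverage signal per gene with StringTie 2.0.6, restricted to annotated genes (GENCODE VM23), as the submitters' processing notes and methods give it. The deposited TPM values sum to 1000000 per library and hold no read depth, so no counting error is given. Isoforms are not separated. The deposited coverage signal was read but used in no result, and deposited FPKM served as an alternative.

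TPM was summed per gene identifier. Gene types came from GENCODE vM21 by identifier (32158 of 32287 matched), and protein-coding genes outside chromosome Y were kept. log2(TPM + 1) was fitted with limma 3.58.1 (empirical Bayes with trend, R 4.3.3), 1 fit per comparison, keeping genes that exceeded 1 TPM in 4 or more libraries (3 or more at E13.5). A gene was called at a Benjamini-Hochberg adjusted p under 0.05 with an absolute log2 difference above 1, without the latter in interaction tests. Members below the filter but above 0 in at least 3 libraries were compared with exact permutation tests (SciPy 1.17.1). The fits were checked on simulated data. Same-numbered exEndo1 and exEndo2 libraries deviated together (correlations of 0.17 to 0.40), so these numbers pair the samples, and no call changed with the block. Elsewhere no source used here ties the numbers to embryos and no other set of pairs checked had every correlation over 0.1, so they were not taken as pairs. The members and the lists were chosen with earlier results of these data known. Every member was named, other pathway genes where called in exGut against emGut or exEndo1 against Epi or above a mean of 10 TPM in a group. Other numbers of libraries, pseudocounts, filters, scalings and blocks were tried as alternatives. DNA methylation was not analysed here.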

Additional observations from a re-analysis of the deposited data

Results flagged for a closer look

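Across 63 sets of 1 member and 1 group of 4 libraries, 12 had a highest or lowest library whose gap to its neighbour exceeded Dixon's 95% value on the log2(TPM + 1) scale, where chance alone would set apart about 5% of sets with normal spread, and values near 0 are not normal. In Epi, replicate 1 stood apart for Piwil2 (1.22 TPM) and Mael (5.46 TPM). In emMidgut, replicate 1 stood apart for Asz1 (6.01 TPM) and replicate 3 for Piwil2 (0.238 TPM). In emHindgut, replicate 1 stood apart for Asz1 (1.11 TPM), Tdrd9 (1.16 TPM) and Ddx4 (0.391 TPM), and replicate 3 for Tdrd1 (2.43 TPM). In exHindgut, replicate 2 stood apart for Tdrd9 (0.283 TPM). In YsEndo, replicate 1 stood apart for Piwil2 (0.0858 TPM, the lowest of its group) and replicate 4 for Tdrd9 (0.587 TPM). In exEndo2, replicate 1 stood apart for Ddx4 (44.6 TPM).

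The origin effect of Rnf17 differed between stages, being larger at E13.5 than at E9.5 by 2.54 on the log2(TPM + 1) scale (limma interaction, adjusted p = 0.00997). Stage, Trp53 genotype, the sort of the embryonic cells and the pooling of embryos cannot be told apart there.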

How the results depend on the processing

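For single members, 1204 of 1231 values under alternatives kept their side of the threshold. These kept their direction too, unless neither value was called and the shift across 0 was within 1 SE. Fits in which a member did not pass the filter hold no value and are not counted. Mov10l1 in exGut against emGut kept its call in all 26 alternatives (1.38 to 4.89; leaving out an emGut library cannot move the difference, as all are at 0), the E13.5 difference of Rnf17 in all 20 (2.91 to 5.45) and its stage interaction in all 35 (2.08 to 4.37). The counts moved more. With region as a covariate 584 genes were called between exGut and emGut against 313. With no filter 171 were called in midgut (316), 223 in hindgut (377), 8 in colon (30), 8 in small intestine (84) and 8 in the region interaction (13), with more genes tested. A pseudocount of 0.1 gave 10 in colon, 0 in the region interaction, 2 members higher in exGut than YsEndo (1) and 0 members higher in small intestine (1), as did no filter there. Without trend the small intestine gave 42 genes and the region interaction 8. Without both emMidgut libraries with Dppa3, midgut gave 118 and the region interaction 5. FPKM left 0 members lower in exEndo2 than Epi (1). Rescaling left 0 members lower in YsEndo than emGut (1), and made 1 higher in YsEndo than exEndo2 (0). Apart from the changes in what was tested, the cause was not tested.

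Leaving out 1 library at a time gave 208 to 359 genes in midgut, 236 to 311 in hindgut, 2 to 21 in colon, 27 to 68 in small intestine, 3 to 19 in the region interaction and 74 to 203 in the stage interaction (99). In the same fits, 1 to 2 members were higher in exGut than emGut (2 without exHindgut replicate 1), 0 to 1 in hindgut (0 without any exHindgut library, since Mov10l1 then did not pass the filter), 0 to 1 in exEndo1 against Epi, 1 to 2 higher and 0 to 1 lower in exEndo2 against Epi, 0 to 1 higher and 1 to 2 lower in exGut against exEndo1, 2 to 3 lower in YsEndo than exEndo2, 0 in small intestine and 1 to 2 in the stage interaction (2 without emColon replicate 1). Tdrkh in colon ranged from -0.43 (without emColon replicate 1, limma adjusted p = 0.907) to 1.79 and was called in no case.

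The replicate block, with numbers not taken as pairs outside exEndo1 and exEndo2, gave 0 members higher in small intestine (Rnf17 3.18, limma adjusted p = 0.0797) and 8 genes in the region interaction. Same-numbered libraries correlated at 0.0149 to 0.0725 at E13.5, where each of the 6 extraembryonic libraries was most like the embryonic one of its number, a hint from the data and not from the design, and at -0.17 to 0.20 elsewhere, with 6 of 8 most like their number in the E9.5 gut. Mov10l1 in exGut against emGut kept its call with the block (limma adjusted p = 0.000913). A filter of 0.5 TPM, chosen after seeing the data, tested 7 members in exGut against emGut and called 1, Mov10l1 (2.01, limma adjusted p = 0.000124).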
